A study of Mus musculus with 6 samples.

Results

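miR-375, miR-184 and miR-338 are miRNAs that have been tied to the compensation of insulin-secreting β cells in obesity, and their levels were examined in small extracellular vesicles (sEVs) shed by cultured mouse islets. Members were taken by name from the deposited table, with either arm of the hairpin admitted. This gave 4 of the 718 listed entries, namely mmu-miR-375-3p, mmu-miR-184-3p, mmu-miR-338-3p and mmu-miR-338-5p, written below without the prefix for mouse. The other arms, miR-375-5p and miR-184-5p, were not among the listed entries. Every listed entry had reads in at least 2 libraries.

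The vesicles came from islets of wild-type mice (strain label C57/B6J) kept on a normal chow diet (NCD), which gave the nid-sEVs, or on a high-fat diet (HFD), which gave the aid-sEVs of islets in the compensatory phase. Each group had 3 libraries, and diet was the only labelled difference between them. The islets were cultured in serum-free medium and vesicles were pelleted from that medium by ultracentrifugation, so all islet cells and any cells carried along in the isolation could contribute. The labels give neither the age of the mice nor how many animals stood behind a library, and p-values therefore measure only the spread between these libraries, which may in part be technical.

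Levels are given as RPM, the reads of a miRNA scaled to a common library total, and every value was a whole multiple of the value of 1 read, which allowed the reads to be recovered. Library totals ran from 50534 to 129152 reads in nid-sEVs and from 122266 to 519315 reads in aid-sEVs. A level of 3 reads, taken as the floor of detection, corresponded to 23.2, 45.7 and 59.4 RPM in nid-sEV replicates 1, 2 and 3 and to 5.78, 8.52 and 24.5 RPM in aid-sEV replicates 1, 2 and 3. nid-sEV replicate 1 stood apart, because 33.4% of its reads fell on entries without a miRBase name, against 6.61% to 9.45% in the other libraries. Intervals of levels, shares and summed reads, and the floors, cover counting error only, and reads copied by PCR are not independent molecules. Intervals of log2 fold changes were instead built from the spread between libraries.

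A miRNA guides an Argonaute protein to target mRNAs mainly through its seed, bases 2 to 8 from the 5′ end, and lowers their translation and stability. miR-375 is the classic islet miRNA. It restrains insulin secretion and is needed for a normal mass of endocrine cells. miR-184 represses Argonaute2 in β cells and is known to fall in islets under insulin resistance, and a fall of miR-338-3p in islets has been linked to the expansion of β cells in pregnancy and obesity. These are properties of miRNAs within cells, and the measurements here are of the RNA that left the islets in vesicles.

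The mature sequences of the members (RefSeq, GRCm38.p6) are shown 5′ to 3′ with the seed in capitals, because the seed sets what each can bind and because the antisense neighbor of miR-338 bears on how its reads can be assigned. miR-375-3p is named only.
miR-184-3p: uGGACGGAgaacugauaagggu
miR-338-3p: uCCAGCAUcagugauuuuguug
miR-338-5p: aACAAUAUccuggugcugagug
miR-3065-5p: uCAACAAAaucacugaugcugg
The 3 member sequences have different seeds. Each seed was held by only 1 of the 1679 mature names in the RefSeq table. miR-184-3p lies at chr9:89802263-89802284 and miR-338-5p at chr11:120014816-120014837, both on the minus strand. miR-338-3p lies at chr11:120014781-120014802 on the minus strand, and miR-3065-5p at chr11:120014780-120014801 on the plus strand. The pair overlaps by 21 bases, and 21 bases in a row of miR-3065-5p are the reverse complement of miR-338-3p. miR-3065-5p was not among the listed entries. Whether the counting used strand is not given in the sources used here, so reads of the 2 strands at this place cannot be told apart with certainty.

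The hairpins lie in different genomic settings of GRCm38, the build named in the labels. Mir375 is on chromosome 1 from 74900658 to 74900721 (minus strand), overlapping no annotated protein-coding gene and 1350 bases from Cfap65 and 7515 bases from Cryba2. Mir184 is on chromosome 9 from 89802260 to 89802328 (minus strand), again overlapping none, with Ankrd34c as the nearest at 63785 bases. Mir338 is on chromosome 11 from 120014765 to 120014862 inside Aatk, a gene on the same strand, and overlaps no exon of the 6 Aatk transcripts that span it, so it is intronic.

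miR-375-3p was the most abundant miRNA of the islet vesicles, and its level differed far more among nid-sEV libraries than among aid-sEV libraries. Its reads numbered 7308, 9874 and 17509 across nid-sEV replicates 1, 2 and 3, which are 56584, 150356 and 346480 RPM. In aid-sEV replicates 1, 2 and 3 it had 84955, 54835 and 16680 reads, which are 163590, 155673 and 136424 RPM. The aid-sEV libraries thus lay close together and inside the range of the nid-sEV libraries, with nid-sEV replicate 1 below and nid-sEV replicate 3 above all of them.

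As a share of reads, miR-375-3p took 5.66% of nid-sEV replicate 1 (95% Wilson interval 5.53% to 5.79%), 15.04% of replicate 2 (14.8% to 15.3%) and 34.6% of replicate 3 (34.2% to 35.1%). The shares in aid-sEVs were 16.4%, 15.6% and 13.6%. It ranked 1 of 718 entries in every library except nid-sEV replicate 1, where it ranked 3 behind an entry without a miRBase name at 182792 RPM and miR-148a-3p at 118326 RPM. This endocrine miRNA was thus abundant in all 6 libraries, which does not show how much other cells contributed to them.

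**Figure D1:**
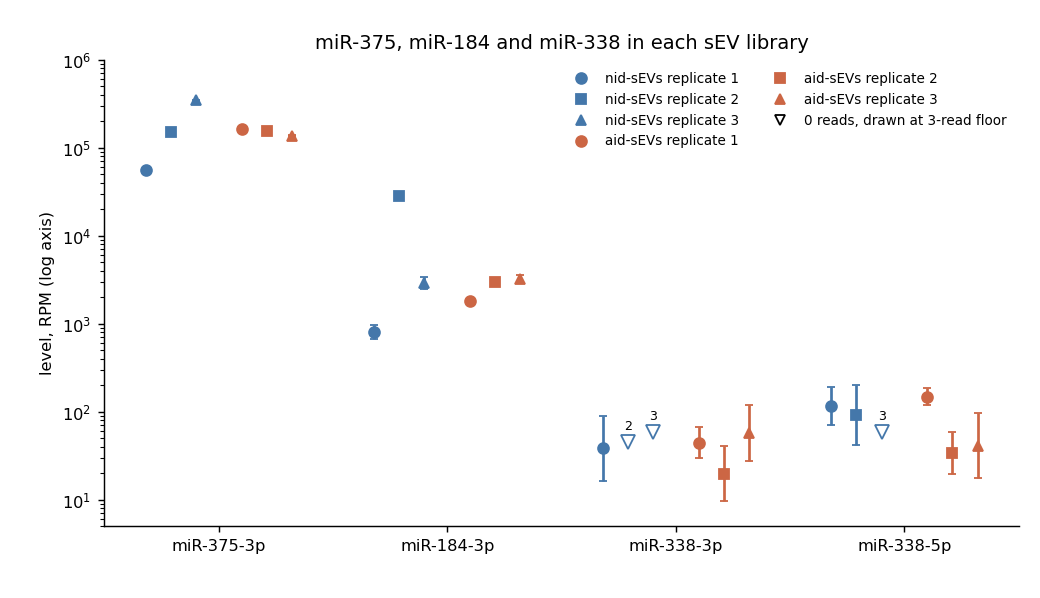
Level of each member in RPM (log axis) in the 3 nid-sEV libraries (blue) and the 3 aid-sEV libraries (orange). Marker shapes stand for replicates, bars are 95% Wilson intervals of the counts, and open triangles, numbered by replicate, are libraries with 0 reads drawn at their floor of 3 reads. For every member the groups overlap, and the nid-sEV libraries of miR-375-3p and miR-184-3p are spread more widely than the aid-sEV libraries.

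miR-184-3p was lower by far than miR-375-3p in every library and was dominated by 1 nid-sEV library. Its reads numbered 104, 1867 and 146 across nid-sEV replicates 1, 2 and 3, which are 805, 28430 and 2889 RPM. In aid-sEVs it had 938, 1049 and 398 reads, which are 1806, 2978 and 3255 RPM. nid-sEV replicate 2 was above every other library, where miR-184-3p ranked 6 of all entries, whereas nid-sEV replicate 1 was below every other library, with rank 83. nid-sEV replicate 3, at rank 39, lay among the aid-sEV libraries, which ranked 57, 45 and 44. The 95% Wilson interval was 27186 to 29729 RPM in nid-sEV replicate 2 and 2951 to 3590 RPM in aid-sEV replicate 3, the next highest library.

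miR-338-3p was close to the limit of detection. The reads were 5, 0 and 0 across nid-sEV replicates 1, 2 and 3 and 23, 7 and 7 across aid-sEV replicates 1, 2 and 3. The detected levels were 38.7 RPM in nid-sEV replicate 1 and 44.3, 19.9 and 57.3 RPM in aid-sEVs. The nid-sEV libraries without a read were the 2 shallowest, and 0 reads there allow levels of up to 45.7 and 59.4 RPM. All but 1 of the aid-sEV levels were under the lower of these floors, and none was above the higher one. At its mean level in aid-sEVs, 40.5 RPM, nid-sEV replicates 1, 2 and 3 would be given 5.23, 2.66 and 2.05 reads, against 5, 0 and 0 observed. Of the 155 entries whose mean in aid-sEVs lay between 20 and 80 RPM, a range chosen after the values were seen, 55 (35.5%) were at 0 in both of these nid-sEV libraries. Neither of these 2 libraries, taken alone, was therefore deep enough to tell a lower level of miR-338-3p from its mean in aid-sEVs. The 2 were not tested jointly here, and nid-sEV replicate 1 had reads at 38.7 RPM.

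The other arm, miR-338-5p, was read 15, 6 and 0 times across nid-sEV replicates 1, 2 and 3 and 77, 12 and 5 times across aid-sEV replicates 1, 2 and 3. These are 116, 91.4 and 0 RPM against 148, 34.1 and 40.9 RPM. Both groups had high and low libraries, and the highest of all was aid-sEV replicate 1, the deepest library. The 5p arm had more reads than the 3p arm in 4 of the 6 libraries, fewer in aid-sEV replicate 3 and neither was detected in nid-sEV replicate 3. The arms summed to 155, 91.4 and 0 RPM in nid-sEVs and 193, 53.9 and 98.1 RPM in aid-sEVs, so the hairpin as a whole also overlapped between the groups.

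The question set by the design is whether vesicles of HFD islets carry other levels of these miRNAs than vesicles of NCD islets. None of the 4 members was called different by limma on log2(RPM + 1), fitted over all 718 entries. A call needed an adjusted p (Benjamini-Hochberg) below 0.05 together with a log2 difference of more than 1. By this rule 125 entries or 17.4% were called, 15.6% higher and 1.81% lower in aid-sEVs. At an unadjusted p under 0.05, 0 of 4 members passed in limma, where 27.9% of all entries did. On recovered reads 0 of 4 passed in edgeR's exact test and in DESeq2, where 25.3% and 23.0% of all entries did. The quasi-likelihood test of edgeR kept 245 entries, of which it called 69 or 28.2%, and it called 0 of the 3 members among them. None of the 4 had groups without overlap, which 31.8% of all entries had.

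For miR-375-3p the means were 184473 ± 147928 RPM in nid-sEVs and 151896 ± 13972 RPM in aid-sEVs (SD, n = 3 each). The log2 fold change was 0.079 (SE 0.63, 95% interval -1.44 to 1.60) with an adjusted p of 0.95 in limma. Its range covers anything from 0.368-fold to 3.03-fold, so the libraries do not show that the levels were alike. The mean of RPM was higher in nid-sEVs while the mean of log2 values was slightly higher in aid-sEVs, since high values weigh more on the linear scale. Without nid-sEV replicate 1 the log2 fold change was -0.59 and without nid-sEV replicate 3 it was 0.72, with adjusted p of 0.31 and 0.34 by limma. The direction thus depended on which nid-sEV library was kept. The exact two-sided permutation test gave p = 0.80, where 3 against 3 libraries cannot go below 0.10.

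For miR-184-3p the means were 10708 ± 15383 RPM in nid-sEVs and 2680 ± 769 RPM in aid-sEVs (SD, n = 3 each), a ratio of 0.250. The log2 fold change was only -0.64 (SE 1.25, 95% interval -3.68 to 2.40) with an adjusted p of 0.78 in limma. Without nid-sEV replicate 2 the log2 fold change turned to 0.77 (adjusted p = 0.51 by limma). The lower mean in aid-sEVs therefore rested on a single library of the control group. The exact two-sided permutation p was 0.90.

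For miR-338-3p the log2 fold change was 3.48 (SE 1.65, 95% interval -0.52 to 7.48) with an adjusted p of 0.22 by limma and an exact two-sided permutation p of 0.20. Its size depends on the 1 RPM added before the logarithm, because 2 nid-sEV libraries were at 0, and it was 5.67 with 0.1 and 1.49 with 10 in its place. Without nid-sEV replicate 1, the only nid-sEV library with reads, it became 5.25 with an adjusted p of 0.016 by limma, a call that sets 2 libraries at 0 reads, with floors of 45.7 and 59.4 RPM, against levels of 19.9 to 57.3 RPM. With reads summed over libraries, miR-338-3p had 5 of 245357 reads in nid-sEVs and 37 of 993825 in aid-sEVs, which is 20.4 and 37.2 RPM and a ratio of 1.83 with a 95% counting interval of 0.716 to 5.96. For miR-338-5p limma gave a log2 difference of 1.45 with an SE of 1.97 and an adjusted p of 0.68, although the means of 69.2 and 74.4 RPM were close. It turned to -0.79 without nid-sEV replicate 3, where the arm was at 0 reads.

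**Figure D2:**
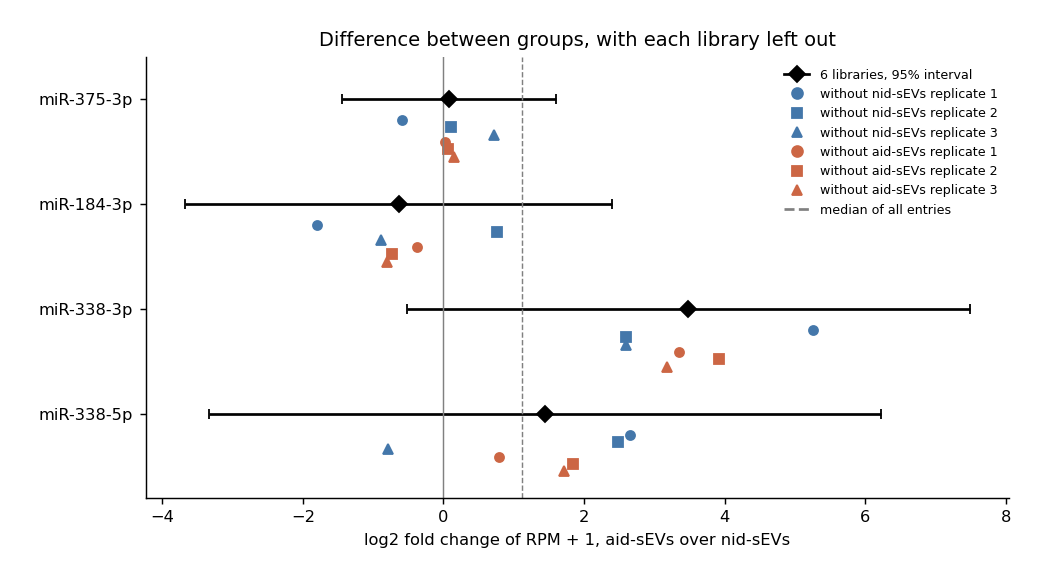
Log2 fold change of RPM + 1, aid-sEVs over nid-sEVs, for each member. Diamonds with bars are the limma estimate over 6 libraries with its 95% interval, and small markers are the estimates with 1 library left out, blue for a nid-sEV and orange for an aid-sEV library, with the median of all entries (1.11) dashed. All 4 intervals include 0, and leaving out 1 nid-sEV library changes the sign for miR-375-3p, miR-184-3p and miR-338-5p.

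Fold changes in this table are read against their own median, which was 1.11 over all 718 entries and -0.21 over the 219 entries detected in all 6 libraries. miR-375-3p and miR-184-3p belong to the latter. The shallower nid-sEV libraries have more entries at 0, from 229 to 417 per library against 89 to 159 in aid-sEVs. In a pair of libraries with like totals, nid-sEV replicate 1 held 129152 reads and aid-sEV replicate 3 held 122266, and miR-375-3p was at 56584 and 136424 RPM in them, miR-184-3p at 805 and 3255 RPM, miR-338-3p at 38.7 and 57.3 RPM and miR-338-5p at 116 and 40.9 RPM. The first 3 were higher in the aid-sEV library of this pair and miR-338-5p was lower. This pair holds the nid-sEV library with the many unnamed entries and is given without a test.

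The members also differed in how far their replicates lay apart. The SD of log2(RPM + 1) of miR-375-3p was 1.31 in nid-sEVs and 0.14 in aid-sEVs, and that of miR-184-3p was 2.60 and 0.46. On the linear scale, the highest nid-sEV library exceeded the lowest 6.12-fold for miR-375-3p and 35.3-fold for miR-184-3p, against 1.199-fold and 1.80-fold in aid-sEVs. The coefficient of variation of miR-375-3p was 80.2% over nid-sEVs and 9.20% over aid-sEVs. A wider spread in nid-sEVs was common, since 175 of the 219 entries detected in every library (79.9%) had it, with median SDs of 0.96 and 0.45. Of these entries, 4 were more variable than miR-184-3p in nid-sEVs, and 72 were more variable than miR-375-3p. In aid-sEVs, 17 entries were steadier than miR-375-3p and 113 were steadier than miR-184-3p.

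Other ways to scale the libraries kept the wide range in nid-sEVs. Relative to the entries with a miRBase name alone, miR-375-3p stood at 85113, 166431 and 383020 RPM in nid-sEVs and at 177408, 166762 and 150398 in aid-sEVs. The highest nid-sEV library was then 4.50-fold above the lowest. With RPM divided by TMM factors, which scale libraries on the bulk of entries, the range was 6.48-fold, and for miR-184-3p it was 23.2-fold. The groups overlapped for all 4 members on each of the 3 other scales tried. The sign of the miR-375-3p difference changed with scale, from 0.079 for RPM to 0.58 with TMM factors and -0.095 relative to miRBase names.

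Ratios of members within a library do not depend on its total. miR-375-3p gave 70.3, 5.29 and 120 reads per read of miR-184-3p across nid-sEV replicates 1, 2 and 3, and 90.6, 52.3 and 41.9 in aid-sEV replicates 1, 2 and 3. The aid-sEV ratios lay between the nid-sEV ratios, of which replicate 2 was far below all others. The mean log2 ratio was 5.15 in nid-sEVs and 5.87 in aid-sEVs, a difference of 0.72 that missed the spread by the exact two-sided permutation test (p = 0.90, adjusted p = 0.90 over 3 ratios). Without nid-sEV replicate 2 it was -0.65. Against miR-338-3p, miR-375-3p was at 1462 reads per read in nid-sEV replicate 1 and at 3694, 7834 and 2383 in aid-sEVs, and it was at least 3291 and 5836 in nid-sEV replicates 2 and 3 when 3 reads stand for the 0 of miR-338-3p. miR-184-3p gave 20.8 reads per read of miR-338-3p in nid-sEV replicate 1 and 40.8, 150 and 56.9 in aid-sEVs, and at least 622 and 48.7 in nid-sEV replicates 2 and 3. With 1 RPM added to both, the differences of these ratios were -3.40 and -4.12 on the log2 scale, each with an exact permutation p of 0.40 (adjusted p = 0.60), the smallest possible being 0.10. With an added RPM such ratios again depend on the library total. The differences were -1.42 and -2.14 with 10 RPM added. They ranged from -5.84 to -1.88 and from -7.05 to -1.83 with a library left out.

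The low miR-375-3p of nid-sEV replicate 1 was also seen against single miRNAs. Reads of miR-375-3p per read of miR-7a-5p, a regulator of endocrine cells, were 4.22, 12.9 and 44.6 in nid-sEV replicates 1, 2 and 3 and 18.2, 17.5 and 12.03 in aid-sEVs. Per read of miR-127-3p, an imprinted miRNA with the highest mean over all 6 libraries of the islet endocrine list, they were 2.05, 4.18 and 7.33 in nid-sEVs and 5.14, 5.84 and 4.77 in aid-sEVs. The nid-sEV order was therefore the same with either denominator, and the aid-sEV ratios again lay between the nid-sEV extremes.

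**Figure D3:**
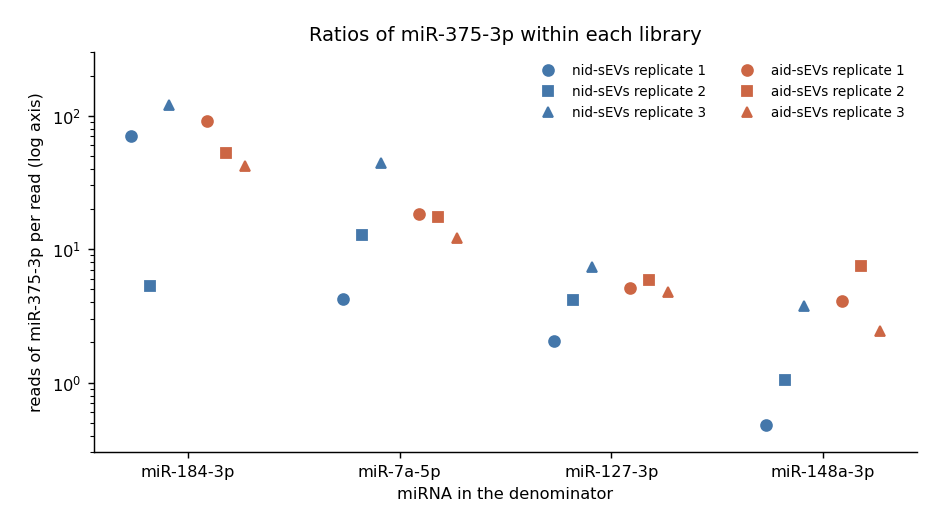
Reads of miR-375-3p per read of miR-184-3p, miR-7a-5p, miR-127-3p and miR-148a-3p (log axis) in each library, blue for nid-sEVs and orange for aid-sEVs. For the first 3 denominators the aid-sEV libraries lie between the lowest and the highest nid-sEV library, and nid-sEV replicate 2 is lowest only against miR-184-3p, at 5.29.

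Of 4 marker lists of other cell types, the acinar and the blood cell and liver sums lay apart between the groups, and the mesenchymal and endothelial sums overlapped. None of these sums was tested. The 4 miRNAs of the acinar list summed to between 95678 and 151102 RPM in nid-sEVs and between 21584 and 59199 RPM in aid-sEVs. The groups did not overlap, and none of the 4 was at 0 in any library. The most abundant of them was miR-148a-3p, and from which cells its reads came was not tested. miR-148a-3p alone made up 118326, 144828 and 93145 RPM in nid-sEV replicates 1, 2 and 3. In aid-sEV replicate 3 it made up 56336 RPM of the sum of 59199 RPM. The acinar sum thus mainly followed this 1 miRNA, and the remaining acinar markers were not summed apart from it. The lack of overlap therefore holds for the sum with miR-148a-3p included and is not shown for the remaining markers. Per read of miR-148a-3p, miR-375-3p had 0.478, 1.04 and 3.72 reads in nid-sEVs and 4.09, 7.45 and 2.42 in aid-sEVs. The 8 blood cell and liver miRNAs summed to between 5026 and 10817 RPM in nid-sEVs and between 443 and 1583 RPM in aid-sEVs, with 3 of the 8, miR-142a-3p, miR-142a-5p and miR-223-3p, at 0 in some library. The 6 mesenchymal miRNAs reached 5422 to 24684 RPM in nid-sEVs and 4494 to 11636 RPM in aid-sEVs, with only miR-214-3p at 0 in some library, and 1 of the 6, miR-199a-3p, is also in the obesity and diabetes list described below. The 2 endothelial arms of miR-126a, at 0 in no library, reached 989 to 3717 RPM and 679 to 1325 RPM. In RPM, nid-sEV replicate 3, the library highest in miR-375-3p, was the lowest nid-sEV library for all 4 of these sums. RPM are shares of a library total, of which miR-375-3p took 34.6% there, and the sums were not taken on another scale. The part of these other cells in the levels of the members was not tested, and fewer vesicles from a cell type and less miRNA per vesicle cannot be told apart in such libraries.

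**Figure D4:**
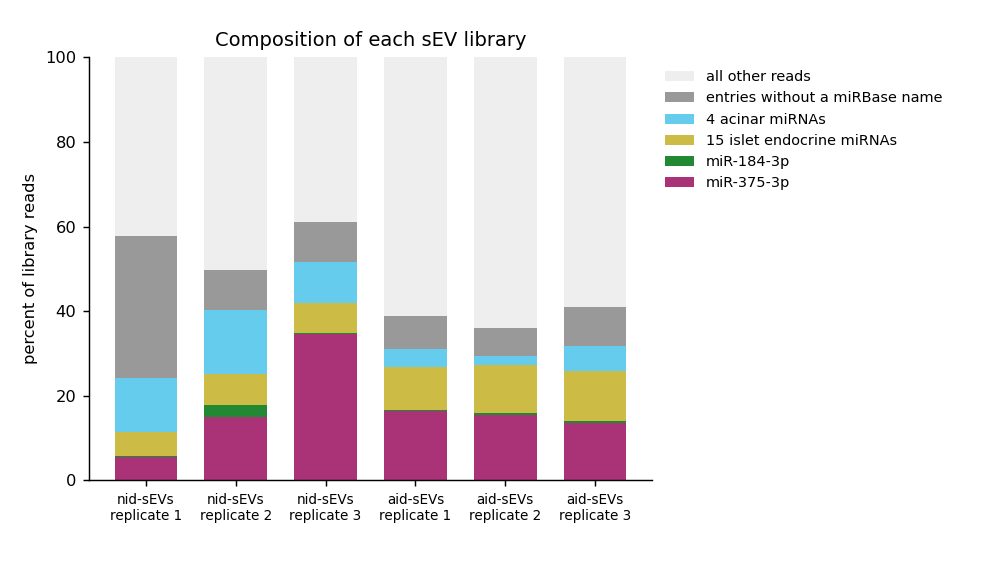
Share of the reads of each library, in percent, taken by miR-375-3p, miR-184-3p, the 15 islet endocrine miRNAs, the 4 miRNAs of the acinar list (mainly miR-148a-3p), the entries without a miRBase name and all other reads. miR-375-3p takes 5.66% to 34.6% in nid-sEVs and 13.6% to 16.4% in aid-sEVs, and the unnamed entries are largest in nid-sEV replicate 1, at 33.4%.

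Other endocrine miRNAs of the same vesicles were examined as a list. Of 15 islet endocrine miRNAs, 13 were detected in all libraries, 4 were called higher and 2 lower in aid-sEVs by limma, and 9 did not pass. Over all entries 15.6% were called higher and 1.81% lower, and of the 219 entries detected in all libraries 22 were called higher and 9 lower. The median log2 fold change of the list was -0.14, against -0.21 over those 219 entries and 1.11 over all entries. The called increases were those of miR-182-5p, at a log2 difference of 3.47 with an SE of 0.28 (limma adjusted p = 0.0034), its cluster partner miR-183-5p, miR-7b-5p and miR-124-3p, a miRNA of neurons that endocrine cells also make. miR-124-3p was at 46.5, 137 and 39.6 RPM in nid-sEVs and 1519, 2399 and 2895 RPM in aid-sEVs, so its groups lay far apart. The called decreases were miR-200b-3p and miR-200c-3p of the epithelial miR-200 family, with log2 fold changes of -1.68 and -1.81. These decreases were not called with TMM factors (-1.19 and -1.32, adjusted p = 0.14 and 0.11 by limma) or with edgeR's exact test (-1.20 and -1.38, adjusted p = 0.28 and 0.19), and miR-200b-3p was not called with a pseudocount of 10 (-1.65, adjusted p = 0.053 by limma). That of miR-200b-3p was also lost without any 1 library other than nid-sEV replicate 3 (-1.59 and -1.62 without nid-sEV replicates 1 and 2, and -1.78, -1.53 and -1.74 without aid-sEV replicates 1, 2 and 3), and that of miR-200c-3p without nid-sEV replicate 2, aid-sEV replicate 1 or aid-sEV replicate 2 (-1.89, -1.90 and -1.67). The call of miR-7b-5p was lost without nid-sEV replicate 2 (1.80, adjusted p = 0.051 by limma). The most abundant of the list by its mean over all 6 libraries, miR-127-3p, had 36967 ± 9845 and 29017 ± 2626 RPM (SD, n = 3 each) in nid-sEVs and aid-sEVs and a limma adjusted p of 0.47.

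A second list held 13 miRNAs known to change in islets in obesity or diabetes, of which 12 were listed and 1 was called higher, 0 lower and 11 did not pass. The share called over all entries was 17.4%. An unadjusted limma p under 0.05 was reached by 4 of the 12, and by 27.9% of all entries. The called miRNA was miR-383-5p, at 147, 107 and 257 RPM in nid-sEVs and 919, 886 and 1006 RPM in aid-sEVs, at a log2 difference of 2.55 with an SE of 0.51 (limma adjusted p = 0.024). This call was lost without nid-sEV replicate 2, aid-sEV replicate 1 or aid-sEV replicate 2 (2.26, 2.56 and 2.59). miR-132-3p, known to rise in islets of obese mice, was at 31.0, 122 and 39.6 RPM in nid-sEVs and at 229, 241 and 164 RPM in aid-sEVs. Its libraries did not overlap between groups, as was the case for 31.8% of all entries, and its adjusted p was 0.14 by limma. Its level in nid-sEV replicate 3 was under the floor of 59.4 RPM there. miR-212-5p, of the same hairpin cluster, was at 108, 168 and 0 RPM and at 826, 1153 and 924 RPM (adjusted p = 0.14 by limma). On recovered reads miR-212-5p was called by edgeR's quasi-likelihood test, its exact test and DESeq2 (adjusted p = 0.030, 0.0019 and 0.00012). miR-132-3p was called by the quasi-likelihood test and DESeq2 (adjusted p = 0.047 and 0.041), but not by the exact test (adjusted p = 0.062). The most abundant of this list, miR-29a-3p, had a log2 fold change of 0.039 and an adjusted p of 0.97 by limma. The median log2 fold change of the list, of which 8 were detected in all libraries, was 1.75, against 1.11 over all entries. The median over all entries depends on the 1 RPM added, and was 1.78 with 0.1 and 0.39 with 10 in its place. Over the 219 entries detected in all libraries it was -0.21, and the median of the 8 was not taken.

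The entries whose log2(RPM + 1) tracked a member most closely over the 6 libraries were sought among 178 miRBase-named entries detected in every library, and are given as a description. For miR-375-3p they were miR-125a-5p, with a Pearson correlation of 0.99, and miR-337-5p and miR-129-5p, with 0.97 each. Their rank (Spearman) correlations were 1.0, 0.60 and 0.71. miR-125a-5p was at 3647, 8208 and 12586 RPM in nid-sEVs and at 8746, 8227 and 7312 RPM in aid-sEVs, the same order of all 6 libraries as miR-375-3p. For miR-184-3p the closest were miR-29c-3p, miR-127-5p and miR-3968, with Pearson correlations of 0.80, 0.79 and 0.77 and rank correlations of 0.54, 0.37 and 0.89. Each of them was highest in nid-sEV replicate 2. miR-29c-3p, for example, had 761 RPM there and between 190 and 435 RPM elsewhere, a far smaller excess than that of miR-184-3p. For miR-338-3p they were let-7g-5p, miR-199a-3p and miR-185-5p (Pearson 0.96, 0.95 and 0.93, rank 0.58, 0.81 and 0.87). For miR-338-5p they were miR-30c-5p, miR-181a-5p and miR-26b-5p (Pearson 0.96, 0.95 and 0.95, rank 0.83, 0.60 and 0.60). miR-338-3p was at 0 reads in 2 of the 6 libraries and miR-338-5p in 1. All values of a library share its total and its composition.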

How the data were processed

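Small RNA of sEVs was sequenced in 3 nid-sEV and 3 aid-sEV libraries, grouped by the diet in their labels. The submitters' processing notes name fastp 0.23.0, HISAT2 2.2.1 and GRCm38, and the counter, miRNA reference and filters are not given in the sources used here. The authors deposited RPM per library. The authors' deposited log2 fold changes and p-values of their own comparison were not used. Dividing by the smallest value above 0 gave whole reads (within 0.01) for 100% of values.

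limma 3.58.1 (R 4.3.3; eBayes with trend) was run on log2(RPM + 1) without a filter. edgeR 4.0.16 and DESeq2 1.42.0 on recovered reads were alternatives. Ratios with miR-338-3p, which had 0 reads in 2 libraries, needed 1 RPM added, against the plan. The fit was checked on simulated reads, drawn with the same spread beyond counting error in both groups. That check does not cover the wider spread among nid-sEV libraries. Members and lists were chosen with earlier results of these data known. Named were the members, their other arms, the 3 closest entries of each, seed relatives, and in each list the most abundant entry and those called. miR-132-3p and miR-212-5p were singled out after their values were seen. Marker lists of other cells were summed per library.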

Additional observations from a re-analysis of the deposited data

How the results depend on the processing

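miR-375-3p, miR-184-3p and miR-338-5p were not called in any of the 17, 17 and 16 alternatives run for them, with adjusted p from 0.31 to 0.99, 0.23 to 0.94 and 0.38 to 0.98, and miR-338-3p was called in 1 of 15. The log2 fold change of miR-375-3p, 0.079, became -0.095 relative to miRBase-named entries, -0.0099 relative to entries other than the 3 members, -0.57 with edgeR's quasi-likelihood test and -0.32 with DESeq2, and ranged from -0.59 to 0.72 with a library left out. That of miR-184-3p ranged from -1.80 to 0.77 with a library left out and that of miR-338-3p from 2.59 to 5.25, the latter called without nid-sEV replicate 1. miR-338-5p became -0.048 with edgeR's quasi-likelihood test, and ranged from -0.79 to 2.65 with a library left out. miR-338-3p was not tested by edgeR's quasi-likelihood test, which filters low counts, and neither arm of miR-338 among entries detected in all 6 libraries. The log2 ratio of miR-375-3p to miR-184-3p ranged from -0.65 to 1.60 with a library left out.

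The count of all called entries, 125, became 71 with a pseudocount of 10, 78 with a mean RPM of at least 10, 38 among entries detected in all 6 libraries, 69 with edgeR's quasi-likelihood test and 76 with its exact test, and ranged from 34 (without nid-sEV replicate 2) to 176 (without nid-sEV replicate 1) with a library left out. It was 115 with DESeq2, 65 higher and 50 lower, against 112 and 13 by limma. miR-132-3p was called in 3 of 17 and miR-212-5p in 4 of 16 alternatives. Of the islet endocrine list, 0 to 7 were called over 17 alternatives, and of the obesity and diabetes list 0 to 4. miR-127-3p turned to 0.18 and 0.11 and miR-7a-5p to 0.36 and 0.31 with TMM factors and edgeR's exact test, and miR-7a-5p ranged from -0.37 to 0.023 with a library left out. miR-29a-3p was -0.14, -0.050 and -0.10 relative to miRBase-named entries, relative to entries other than the 3 members and with edgeR's quasi-likelihood test, and ranged from -0.34 to 0.62 with a library left out. The causes of these shifts were not tested. The labels number the libraries of both groups from 1 to 3, but same-numbered libraries did not deviate together (correlations of -0.053, 0.058 and -0.051). Such correlations cannot show whether same-numbered libraries were prepared together. With the replicate number as a block, limma called 0 entries against 125 without the block. The shallow nid-sEV libraries limit what can be said of miR-338.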
